A study of Mus musculus with 24 samples.

Results

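Cdx2 binding was compared between WENR-plus and WENR-minus medium in mouse colon organoids of both ends of the colon, and the genomic regions described here are those at which the medium moved the Cdx2 peak the same way in every organoid line, or opposite ways at the proximal and the distal site. All 12 Cdx2 peak lists were used as 6 pairs, each pair holding the WENR-plus and the WENR-minus list of 1 site and 1 replicate number. Such a pair is called an organoid line here, although the labels give only the replicate number and do not state that both lists came from the same line. Each list was reduced to its 5604 strongest peaks by -log10 p, the length of the shortest list on chromosomes 1 to 19 and X, overlapping peaks were merged into 15205 regions, and the fold enrichment of each peak over input was turned into a percentile rank within its list, where 100 is the highest. A move is the rank in WENR-minus less the rank in WENR-plus of the same line, in percentile points. Of the 1123 regions that all 12 reduced lists shared, 67 ranked higher in WENR-minus in all 6 pairs (5.97% of the ranked regions) and 68 ranked lower (6.06%). Another 12 ranked higher in the 3 proximal pairs and lower in the 3 distal pairs (1.07%), and 22 did the reverse (1.96%).

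Organoids came from the first 1.0 cm (proximal) and the last 1.0 cm (distal) of the colon of 3 mice and had been grown for 4 months, and each of the 4 groups of site and medium held 3 Cdx2 libraries with matched input libraries. By the methods on organoid culture, the mice were 8-week-old females that carried a heterozygous Cre-inducible BrafV600E allele and a heterozygous tdTomato reporter. That section counts fewer mice than the ChIP-seq section, which does not restate age, sex or genotype. The genotype was taken as shared by every group. No Cre was named for these samples, and the state of the Braf allele cannot be read from peak lists. WENR-plus contained Wnt3a, EGF, Noggin and R-spondin 1, and WENR-minus lacked all 4 factors for 3 days after 2 days of plating in WENR-plus, so the effect of a single factor cannot be told apart from that of the others. By the methods Wnt3a, R-spondin 1 and Noggin were supplied as conditioned media, whose other contents cannot be told apart from the factors. For the WENR-plus libraries the ChIP-seq methods do not state the days after plating. Organoids hold epithelial cells without stroma, and a mixture of stem, dividing and differentiated cells was fixed in bulk, so that a change in Cdx2 binding per cell and a change in the share of a cell type cannot be told apart.

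Cdx2 is a homeodomain transcription factor of the intestinal epithelium that binds AT-rich sequence and takes part in setting up and keeping the identity of enterocytes and colonocytes. Wnt and R-spondin keep crypt stem cells dividing through beta-catenin and its DNA-binding partners of the TCF/LEF family, EGF drives proliferation through the MAPK pathway, and Noggin blocks BMP signals, which favor differentiation. When these factors are taken away, colon organoids stop renewing their stem cells and differentiate.

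The sequences below span 75 bases to either side of the median summit of the 4 regions of each direction with the largest smallest move over the 6 pairs, and of the first region of each opposite pattern, read from the plus strand of GRCm38 (mm10). Capitals mark the Cdx2 words searched, TTTATGA or TTTATGG as well as TTTATTA or TTTATTG, on either strand, and each region is named by the nearest start of a protein-coding gene. Higher in WENR-minus were regions at chr13:111619450-111619600 (Gm10198), chr1:151615935-151616085 (Fam129a), chr2:144946620-144946770 (Scp2d1) and chr19:17691808-17691958 (Pcsk5).
Gm10198: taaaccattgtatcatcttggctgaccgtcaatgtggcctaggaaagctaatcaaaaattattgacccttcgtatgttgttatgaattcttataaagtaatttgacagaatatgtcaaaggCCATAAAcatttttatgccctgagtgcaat
Fam129a: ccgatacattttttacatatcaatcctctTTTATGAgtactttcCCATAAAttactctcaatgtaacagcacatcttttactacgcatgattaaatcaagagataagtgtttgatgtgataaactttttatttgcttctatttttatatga
Scp2d1: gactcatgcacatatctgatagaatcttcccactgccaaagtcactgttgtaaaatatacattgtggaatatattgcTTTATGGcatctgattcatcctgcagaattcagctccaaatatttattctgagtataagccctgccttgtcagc
Pcsk5: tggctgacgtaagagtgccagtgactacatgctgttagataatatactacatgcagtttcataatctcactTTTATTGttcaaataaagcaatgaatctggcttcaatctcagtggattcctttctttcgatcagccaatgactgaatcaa
Lower in WENR-minus were regions at chr3:130943393-130943543 (Lef1), chr6:127335461-127335611 (Parp11), chr3:84270035-84270185 (Trim2) and chr1:133241630-133241780 (Plekha6).
Lef1: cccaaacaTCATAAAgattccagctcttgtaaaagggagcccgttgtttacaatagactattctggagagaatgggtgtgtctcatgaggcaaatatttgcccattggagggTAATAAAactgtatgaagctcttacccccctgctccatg
Parp11: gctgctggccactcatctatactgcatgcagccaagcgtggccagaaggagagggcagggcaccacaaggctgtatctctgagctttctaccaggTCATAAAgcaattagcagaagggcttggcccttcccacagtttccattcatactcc
Trim2: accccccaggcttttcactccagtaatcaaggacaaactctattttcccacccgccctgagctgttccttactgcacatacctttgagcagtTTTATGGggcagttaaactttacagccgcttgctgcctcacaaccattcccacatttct
Plekha6: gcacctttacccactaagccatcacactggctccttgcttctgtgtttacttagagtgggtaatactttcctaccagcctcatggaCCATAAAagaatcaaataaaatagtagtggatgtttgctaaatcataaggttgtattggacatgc
Opposite at the 2 sites were regions at chr17:6636357-6636507 (Dynlt1f) and chr12:22447896-22448046 (Ywhaq).
Dynlt1f: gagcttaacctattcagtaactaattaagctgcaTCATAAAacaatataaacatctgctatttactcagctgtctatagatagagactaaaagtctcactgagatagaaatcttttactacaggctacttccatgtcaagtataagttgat
Ywhaq: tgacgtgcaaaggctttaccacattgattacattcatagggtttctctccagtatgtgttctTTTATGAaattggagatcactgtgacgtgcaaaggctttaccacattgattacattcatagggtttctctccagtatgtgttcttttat
Every window held 1 or 2 of the Cdx2 words, the nearest of which started 4 bases before the summit in Pcsk5, 2 bases after it in Scp2d1 and 46 bases after it in Gm10198. AP-1 words (TGANTCA) stood in the windows of Scp2d1 and Pcsk5 and in none of the other 8. The Ywhaq window held a stretch of 67 bases that occurs again within the same window, whereas the longest repeated stretch of the other windows was 5 to 9 bases.

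The region with the largest move shared by all lines lay 26.7 kb from the start of the predicted gene Gm10198 and 2.98 kb from that of the noncoding gene Gm15286, at chr13:111618578-111620149, and it counted as a promoter through the latter. In proximal organoids it ranked 46.6, 46.9 and 57.1 in WENR-plus (replicates 1, 2 and 3) and 92.1, 85.3 and 97.0 in WENR-minus. In distal organoids the ranks were 12.4, 14.8 and 17.0 in WENR-plus and 77.3, 81.3 and 95.7 in WENR-minus. All 6 WENR-minus libraries stood above all 6 WENR-plus libraries, with a smallest move of 38.5 points. Its fold over input went from 5.12 to 11.2 across the WENR-plus libraries and from 9.0 to 22.6 across the WENR-minus libraries. Peaks of equal fold share a rank. In distal WENR-plus replicate 1 a fold of 5.73 gave rank 12.4 here and at Scp2d1, Pcsk5, 1700057G04Rik and Krtap28-13. A fold of 6.17 gave 27.8 at Fam129a, so a small step among low folds could span many percentile points.

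A region within an intron of Fam129a, which encodes the stress-associated protein Niban, followed at chr1:151615578-151616435. It ranked 54.7, 31.5 and 72.1 in proximal WENR-plus, 89.0, 81.7 and 94.9 in proximal WENR-minus, 27.8, 65.9 and 27.0 in distal WENR-plus, and 93.6, 96.4 and 90.1 in distal WENR-minus. Again the media did not overlap. The next 3 regions lay far from a protein-coding start, 123 kb from Scp2d1, 146 kb from the start of Pcsk5 (a proprotein convertase) but inside that gene, and 183 kb from Slc30a5 (a zinc transporter), and none of the 3 overlapped between media. Their mean ranks went from 41.6 ± 18.5 to 75.2 ± 9.97, from 45.1 ± 27.1 to 86.2 ± 7.12, and from 50.1 ± 25.4 to 89.4 ± 6.14 (SD, n = 6 per medium). In each of these 5 regions the WENR-plus libraries were spread more widely than the WENR-minus libraries.

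The other 5 of the 10 leading regions that ranked higher in WENR-minus lay near Ildr1, 1700057G04Rik, Samd9l, Krtap28-13 and Dab2, and in each of them the media overlapped across lines although every line moved the same way. The Ildr1 region was the only one of the 10 within 1 kb of a protein-coding start (0.865 kb), and Ildr1 encodes a protein of tricellular junctions. It ranked 71.0, 26.2 and 59.4 in proximal WENR-plus, 83.2, 74.6 and 76.7 in proximal WENR-minus, 73.0, 75.1 and 73.9 in distal WENR-plus, and 84.3, 85.2 and 94.4 in distal WENR-minus. The region 274 kb from Dab2, an endocytic adaptor, held the most even ranks of the 10, with a mean of 76.7 ± 5.46 in WENR-plus and 86.4 ± 4.39 in WENR-minus (SD, n = 6).

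Among regions that ranked lower in WENR-minus, the leading one was intergenic at chr3:130943051-130943812, and its nearest protein-coding start was that of Lef1, 167 kb away. Lef1 encodes a DNA-binding partner of beta-catenin and is itself a Wnt target, no contact between this region and the gene was measured, and at this distance the region entered no gene list. In proximal organoids it ranked 88.8, 88.3 and 98.3 in WENR-plus and 59.9, 68.0 and 61.7 in WENR-minus. In distal organoids it ranked 91.1, 92.7 and 94.2 in WENR-plus and 54.0, 30.0 and 76.0 in WENR-minus. It was the only one of the 10 leading lower regions in which the media did not overlap, with a mean of 92.2 ± 3.71 against 58.2 ± 15.8 (SD, n = 6). Its fold ranged from 11.5 to 30.9 in WENR-plus and from 5.92 to 10.7 in WENR-minus.

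A pair of the other leading lower regions lay in Stk38l, which encodes a kinase of the NDR family, 1 in the promoter (0.548 kb from the start) and 1 in an intron 7.87 kb from the first. The intronic region had means of 84.4 ± 10.8 in WENR-plus and 59.1 ± 21.1 in WENR-minus, and the promoter region 93.4 ± 4.65 and 82.1 ± 8.93 (SD, n = 6). The Trim2 promoter, which belongs to a ubiquitin ligase gene, ranked 83.3, 66.7 and 86.6 in proximal WENR-plus, 48.6, 46.0 and 75.8 in proximal WENR-minus, 73.0, 94.7 and 82.6 in distal WENR-plus, and 33.2, 82.8 and 68.5 in distal WENR-minus. Each line had the lower rank in WENR-minus, but the lines started from different levels, so the media overlapped. Introns of Plekha6, Cers6 (a ceramide synthase) and Hs3st1 (a heparan sulfate sulfotransferase) followed the same course, with mean moves of -18.4, -24.7 and -20.8 points. The intergenic regions nearest to Sowahc, Parp11 (a mono-ADP-ribosyltransferase) and Snap25 (a SNARE protein) had mean moves of -40.6, -37.5 and -26.9 points, and Sowahc held the largest mean move of the 10.

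**Figure D1:**
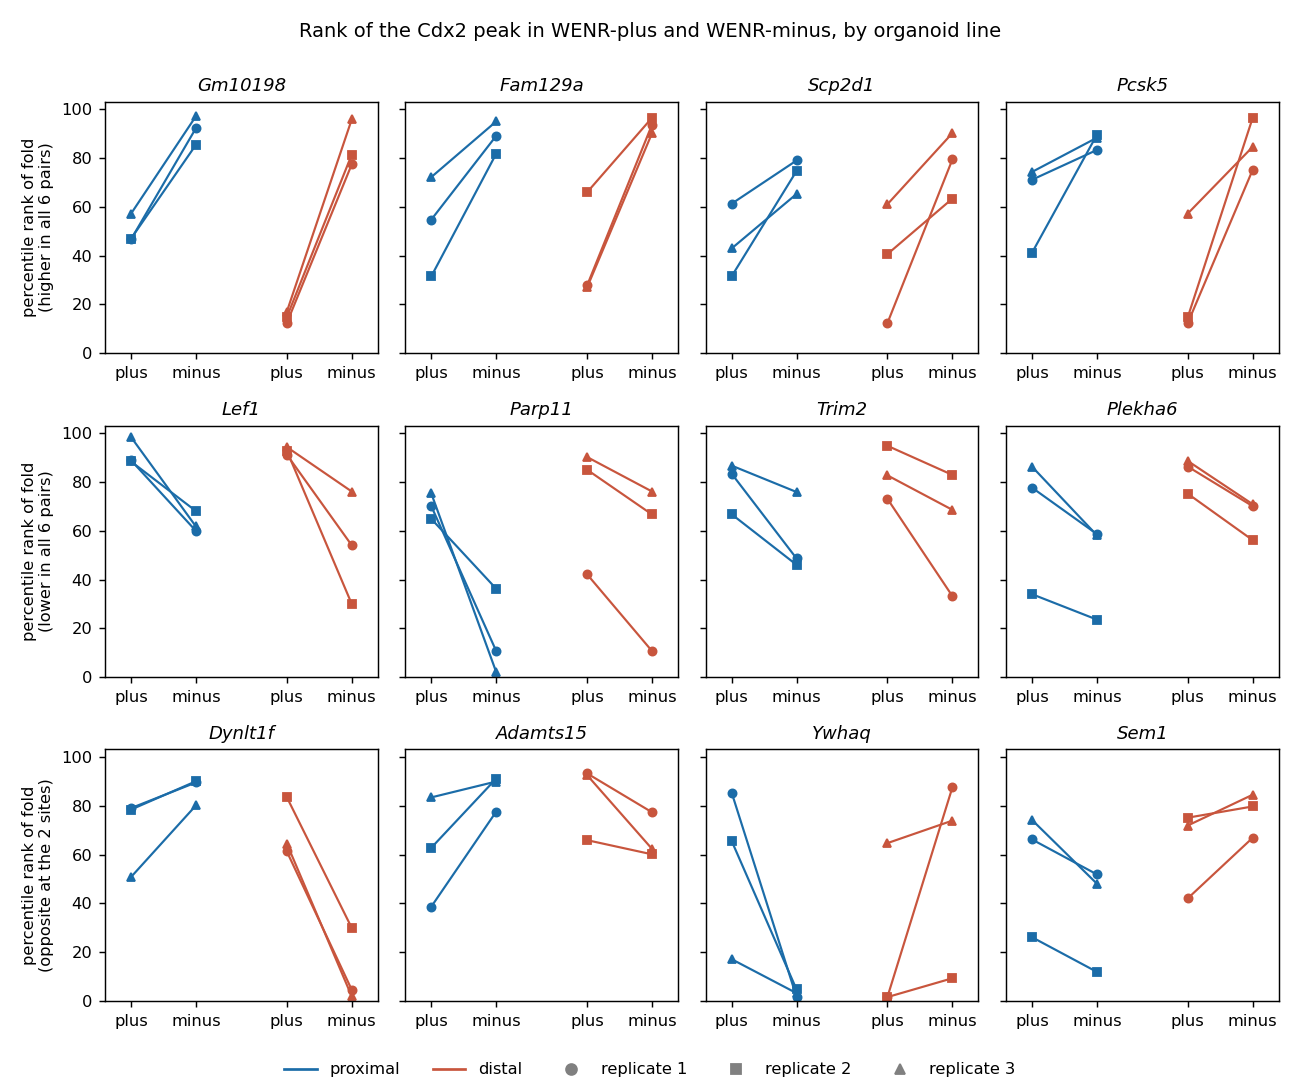
Percentile rank of fold (y axis, 0 to 100) of the Cdx2 peak in WENR-plus and WENR-minus medium (x axis), with 1 line for each of the 6 organoid lines, for 4 regions higher in all 6 pairs (top), 4 lower in all 6 pairs (middle) and 4 opposite at the 2 sites (bottom). The Gm10198 and Fam129a panels show the 6 WENR-minus values above the 6 WENR-plus values, and the Lef1 panel shows the reverse.

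Over whole groups, the 67 regions higher in WENR-minus had a median mean move of 15.1 points, with mean moves from 1.28 to 55.7, and in 9 of them the media did not overlap. The 68 lower regions had a median mean move of -12.7 points and sizes from 0.262 to 40.6, and in 3 the media did not overlap, which makes 12 of the 1123 ranked regions (1.07%). The rule sets no minimum size, so the smallest move within a region went down to 0.0357 points in the higher group and 0.0178 points in the lower group. Regions of high rank had little room to move: the median size of a move was 16.7 points among the 344 regions with a mean rank below 70 and 0.714 points among the 120 regions at 95 or above. The share that moved the same way in all pairs was 7.56% in the former and 14.2% in the latter. The rank of -log10 p, which comes from the same peaks as the fold, was higher in all 6 pairs in 58 of the 67 and lower in 61 of the 68 regions, and over all 1123 regions it was higher in 69 (6.14%) and lower in 83 (7.39%). Peak width ranked higher in all 6 pairs in 14 of the 67 and lower in 8 of the 68, and over all 1123 regions it was higher in 45 (4.01%) and lower in 63 (5.61%).

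On the percentile rank, limma with organoid line as a block and Benjamini-Hochberg adjustment over the 1123 regions called 0 regions for medium (0%), and the smallest adjusted p was 0.143, at Gm10198. At an unadjusted p under 0.05 there were 139 regions (12.4%). The fit counts the 6 lines as separate, although lines of the 2 sites may come from the same 3 mice, which its p-values and SE do not allow for. The same fit was run on the log2 fold less the median of its list, the scale on which the strongest peaks are not compressed. It called 23 regions higher in WENR-minus (2.05%) and 9 lower (0.801%). Of these, 22 and 7 were among the regions that moved the same way in all 6 pairs. Both scales use the same fold, so this overlap is no separate evidence. The calls depended on the scale, and on single lines as well: without distal replicate 3 the log2 fold fit called 7 regions, without proximal replicate 3 and without distal replicate 2 it called 19 each. The regions near Gm10198, Fam129a, Krt20, Lef1 and Zfp820 were called in all 6 of these fits.

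Of these, Krt20 is a keratin of mature colonocytes, and its region lay in the promoter, 1.25 kb from the start, at chr11:99436310-99437431. The proximal ranks were 96.2, 90.6 and 92.1 in WENR-plus and 96.9, 97.4 and 97.4 in WENR-minus. The distal ranks were 58.1, 63.5 and 94.2 in WENR-plus and 99.1, 99.0 and 98.7 in WENR-minus. All WENR-minus libraries stood above all WENR-plus libraries, and the log2 fold difference was 0.84 ± 0.17 (SE, n = 6 pairs, limma adjusted p = 0.0138). On the same log2 fold scale the difference was 1.00 ± 0.15 at Gm10198 (adjusted p = 0.00163, limma), 0.91 ± 0.13 at Fam129a (adjusted p = 0.00163, limma) and -0.82 ± 0.15 at Lef1 (adjusted p = 0.0115, limma).

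Among the other regions called on the log2 fold scale, several were singled out here after their values were seen. An intron of Dhrs9, a retinol dehydrogenase, went from a mean rank of 73.4 to 93.4, with a log2 fold difference of 0.66 ± 0.15 (SE, limma adjusted p = 0.0204). A region 31.5 kb from Slc10a2, the sodium-dependent bile acid transporter, did not overlap between media and differed by 0.63 ± 0.13 (SE, limma adjusted p = 0.0138). A region 120 kb from Hpgd, which degrades prostaglandins, differed by 0.60 ± 0.15 (SE, limma adjusted p = 0.0318), and one 503 kb from Klf4, a transcription factor of differentiated epithelium, by 0.55 ± 0.14 (SE, limma adjusted p = 0.0372). Introns of Limk2, Gda and Mid1 were among the 9 called lower, at -0.72 ± 0.15, -0.73 ± 0.17 and -0.60 ± 0.15 (SE). Of these genes Klf4 alone is on a list below, its region lying too far from the start to be counted there. With 1 line left out in turn, the Slc10a2 and Limk2 regions were called in 5 of 6 fits, Dhrs9 and Gda in 3, Hpgd and Mid1 in 2 and Klf4 in 1. Regions nearest to Frk, Olfr332, Cdrt4 and Slc30a5 were higher by 0.77 ± 0.14, 0.71 ± 0.15, 0.65 ± 0.14 and 0.82 ± 0.16 (SE). Their adjusted p was 0.0119 at Frk and 0.0138 at the others (limma), and each was called in 5 of 6 fits. The genes singled out above therefore do not stand for all called regions.

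How far the medium moves were shared by the 2 sites was read from the site that did not choose a region. Of the 186 regions that ranked higher in WENR-minus in all 3 proximal pairs, 67 also ranked higher in all 3 distal pairs (36.0%), against 199 of all 1123 ranked regions (17.7%). Of the 223 that ranked lower in all 3 proximal pairs, 68 ranked lower in all 3 distal pairs (30.5%), against 206 of all regions (18.3%). The opposite outcome was rarer, with 12 of the 186 (6.45%) and 22 of the 223 (9.87%). The mean distal move was above 0 in 66.1% of the proximal-higher regions and in 34.98% of the proximal-lower regions, compared with 48.1% of all regions. Across the 1123 regions, which share libraries and are no independent replicates, Pearson's r of the moves was 0.0743 to 0.150 between lines of different sites (9 comparisons) and 0.0819 to 0.226 between lines of the same site (6 comparisons), and 0.265 between the site means. Each line had its own WENR-plus and WENR-minus libraries, but the replicate numbers may stand for the same 3 mice at both sites, which the labels do not state.

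**Figure D2:**
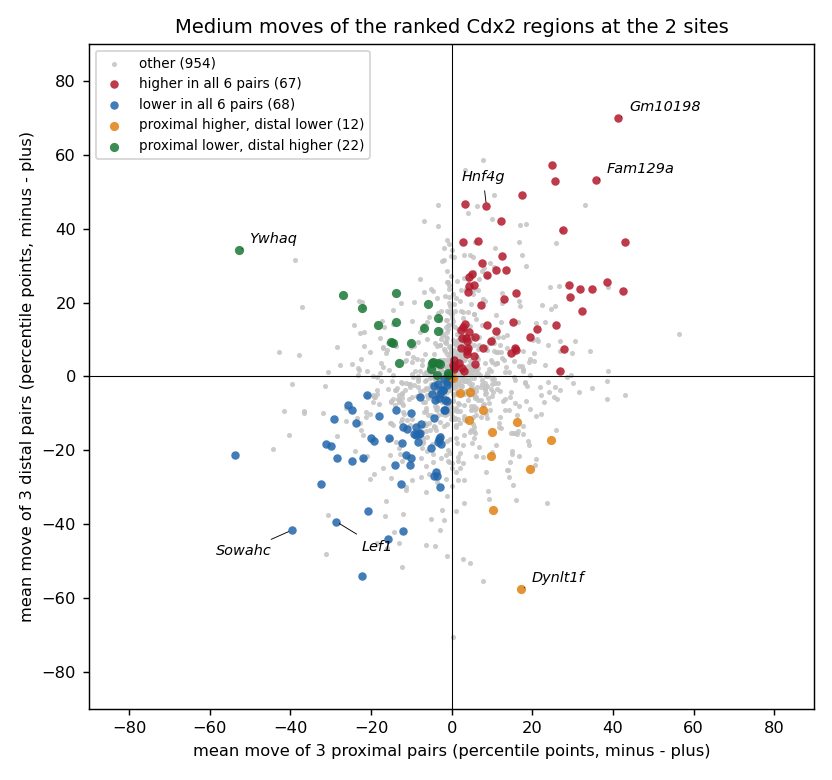
Mean move of the 3 distal pairs (y axis) against that of the 3 proximal pairs (x axis), in percentile points of the fold rank, for each of the 1123 ranked regions, colored by pattern. Regions that moved the same way in all 6 pairs (67 and 68) fill the upper right and lower left, and the 12 and 22 regions with opposite moves are fewer and lie in the other quadrants.

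No region with opposite moves passed the test of the difference between sites. The median smallest move was 1.48 points in the 12 proximal-higher regions and 0.268 points in the 22 proximal-lower regions. By the same measure it was 1.12 points in the 67 regions higher in all 6 pairs and 1.86 points in the 68 lower ones. The limma term for medium by site called 0 regions (0%), with a smallest adjusted p of 0.690 and 71 regions at an unadjusted p under 0.05 (6.32%). Without proximal replicate 2 it called 1 region.

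The largest pattern with higher ranks in proximal and lower ranks in distal WENR-minus lay in an intron, 3.36 kb from the start of Tmem181c-ps and 19.4 kb from Dynlt1f, a dynein light chain gene. It ranked 79.0, 78.4 and 50.8 in proximal WENR-plus, 89.5, 90 and 80.1 in proximal WENR-minus, 61.3, 83.5 and 64.5 in distal WENR-plus, and 4.7, 30.0 and 2.0 in distal WENR-minus. The distal media did not overlap, and the distal less the proximal move was -74.7 points (adjusted p = 0.690, limma). How uniquely reads map at this region was not measured. The Cask promoter, 0.524 kb from the start of this scaffold kinase gene, followed with -44.5 points, and a region 32.9 kb from the metalloprotease gene Adamts15 with -41.9 points. Regions near Tex48 and Klhl31 differed by -25.0 and -28.5 points.

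In the reverse pattern the leading region lay far from any protein-coding gene, with Ywhaq nearest (1030 kb), a 14-3-3 protein gene, at the repeated sequence printed above. It ranked 85.4, 65.6 and 17.2 in proximal WENR-plus, 1.7, 4.8 and 3.3 in proximal WENR-minus, 1.8, 1.7 and 64.7 in distal WENR-plus, and 87.5, 9.4 and 73.9 in distal WENR-minus. Its distal ranks therefore differed more between lines than between media, and the part of the repeated sequence in this was not tested. The Pam intron region, in the gene of the enzyme that amidates peptide hormones, was steadier. Its proximal ranks were 85.9, 81.3 and 87.9 in WENR-plus and 57.4, 51.5 and 65.2 in WENR-minus, and its distal ranks 35.5, 80.9 and 76.4 in WENR-plus and 88.1, 85.2 and 86.0 in WENR-minus, a distal less proximal difference of 49.2 points (adjusted p = 0.690, limma). The regions nearest to Sem1 (a proteasome subunit gene), Fam19a5 and Serpinb8 differed by 32.2, 24.4 and 23.6 points.

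The Cdx2 words stood within 50 bp of the summit in 52 of the 67 higher regions (77.6%, 95% Wilson interval 66.3 to 85.9%, which covers counting error only) and in 58 of the 68 lower regions (85.3%, 75.003 to 91.8%), against 78.7% of all ranked regions. The AP-1 word was in 4 of the 67 and 4 of the 68 regions, 5.97% and 5.88%, beside 9.80% of all ranked regions. The TCF/LEF words (CTTTGAA and CTTTGAT) were in 3 and 4 regions (4.48% and 5.88%) and in 6.32% of all ranked regions, and the GATA word (AGATAA) in 7 and 9 (10.4% and 13.2%, against 9.26%). All intervals for these words took in the share of all ranked regions. Intergenic summits made up 47.8% of the higher regions (36.3 to 59.5%) and 30.9% of the lower regions (21.2 to 42.6%), beside 39.7% of all. Promoters, taken as summits within 3 kb of any annotated start, made up 20.9% (12.9 to 32.1%) and 26.5% (17.4 to 38.0%), beside 22.5%. The median distance to a protein-coding start was 23.9 kb in the higher and 12.3 kb in the lower regions, and 18.7 kb overall.

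Among the 135 regions with a shared and the 34 with an opposite pattern, 4 neighboring pairs were within 100 kb of each other, and 2 of these pairs shared their direction, the pair in Stk38l and a pair of regions 72.5 kb apart at Naip5 and Naip6, members of a cluster of similar genes. The other 2 did not: near the homeobox gene Mnx1, a region nearest to Nom1 ranked higher in WENR-minus by a mean of 7.39 points and one 52.5 kb away ranked lower by a mean move of -12.4 points, and near the manganese transporter gene Slc30a10 a region with opposite moves lay 71.0 kb from one with mean moves of -1.34 points.

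Regions within 100 kb of genes on 10 lists were counted next, the lists having been chosen with earlier results of these data known. Of the 945 ranked regions within that distance of any protein-coding start, 54 ranked higher (5.71%) and 61 lower (6.46%) in all 6 pairs, with a median mean move of -0.0967 points. The colonocyte differentiation list had 16 ranked regions at 12 genes, of which 2 ranked higher and 0 lower, with a median mean move of 1.16 points. The stem cell and Wnt target list had 8 regions at 6 genes, of which 0 ranked higher and 3 lower, with a median of -3.87 points. Among intestinal transcription factors 1 of 14 regions at 5 genes ranked higher (Hnf4g) and 1 lower (Pparg), and of 6 EGF and MAPK response regions 1 ranked lower (Etv5). None of the 4 Notch and secretory lineage or the 5 Hox cluster regions moved the same way in all lines. No ranked region lay near a gene of the cell cycle, BMP and TGF-beta response, or fibroblast and muscle lists, and the immune and endothelial list had 1 (Lyve1, not moved in all lines).

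Hnf4g, a nuclear receptor of differentiated enterocytes, had an intronic region that ranked 90.1, 84.1 and 89.5 in proximal WENR-plus, 95.3, 95.9 and 98.4 in proximal WENR-minus, 57.5, 33.4 and 20.9 in distal WENR-plus, and 75.1, 78.3 and 96.9 in distal WENR-minus. On the log2 fold scale it differed by 0.75 ± 0.16 (SE, limma adjusted p = 0.0153). Each site separated the media, but proximal WENR-plus stood above part of distal WENR-minus. The 4 other ranked Hnf4g regions had mean moves of -7.92, -0.422, 11.5 and 15.0 points. An intron of Slc9a2, a sodium-proton exchanger of the colon surface, had a mean rank of 81.1 in WENR-plus and 92.8 in WENR-minus. Its smallest move was 0.161 points, and it passed neither test (limma adjusted p = 0.423 on the rank and 0.143 on the log2 fold). Other ranked Slc9a2 regions had mean moves of 0.229 and 4.81 points and did not move the same way in all lines.

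The 3 lower regions of the stem cell and Wnt target list belonged to Hopx, Lrp6 and Prom1. Hopx, a homeobox gene linked to reserve stem cells, had an intronic region with proximal ranks of 96.2, 96.0 and 95.6 in WENR-plus and 91.2, 92.1 and 92.7 in WENR-minus, and distal ranks of 82.0, 93.4 and 98.6 in WENR-plus and 72.8, 72.0 and 51.5 in WENR-minus. The promoter of Lrp6, a Wnt co-receptor, had mean ranks of 84.96 in WENR-plus and 73.1 in WENR-minus, and a region 3.42 kb from the start of Prom1, a membrane protein of progenitor cells, 78.8 and 70.9. None of the 3 passed the test on the rank (limma adjusted p = 0.368, 0.418 and 0.577) or on the log2 fold (limma adjusted p = 0.0981, 0.298 and 0.671). A second ranked Lrp6 region had a mean move of 18.6 points and a second Prom1 region -0.401 points. The Etv5 region, 62.4 kb from this ETS factor gene and inside Dgkg, went from a mean rank of 82.4 to 52.6, and the Pparg region from 90.7 to 78.5.

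Peaks absent from some lists were taken in by a wider set of 4897 regions found in at least 6 of the 12 reduced lists, in which an absent peak was ranked 0. This filter counts both media alike, yet a region found in 1 medium alone passes it only if every list of that medium has it. In this set 193 regions ranked higher in WENR-minus in all 6 pairs (3.94%), 165 lower (3.37%), 34 higher in proximal and lower in distal pairs (0.694%) and 42 the reverse (0.858%). Of the 193 and the 165, 126 and 97 were not ranked in all 12 lists. Within 100 kb of a protein-coding start the shares were 4.01% higher and 3.77% lower of 3815 regions. The colonocyte list had 6 of 46 regions higher and 0 lower (median mean move 2.04 points, against -0.0714 for the 3815), and the stem cell and Wnt target list 0 of 20 higher and 5 lower (median -1.67). Intestinal transcription factors had 4 of 52 higher and 1 lower, the EGF and MAPK list 0 of 25 higher and 1 lower, the Hox clusters 0 of 16 higher and 1 lower, and cell cycle genes 0 of 5 higher and 1 lower. The 9 BMP and TGF-beta, the 9 Notch and secretory and the 2 immune and endothelial regions had none that moved the same way in all lines, and the fibroblast and muscle list had no region. A region in all lists of 1 medium and few of the other takes its direction largely from the rank of 0. A Car1 intron region was in 1 WENR-plus and 6 WENR-minus lists, Slc9a3 in 2 and 6, and Plk1 in 6 and 2, whereas Krt20 was in 6 and 6. These counts describe the lists and are no evidence for a direction.

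**Figure D3:**
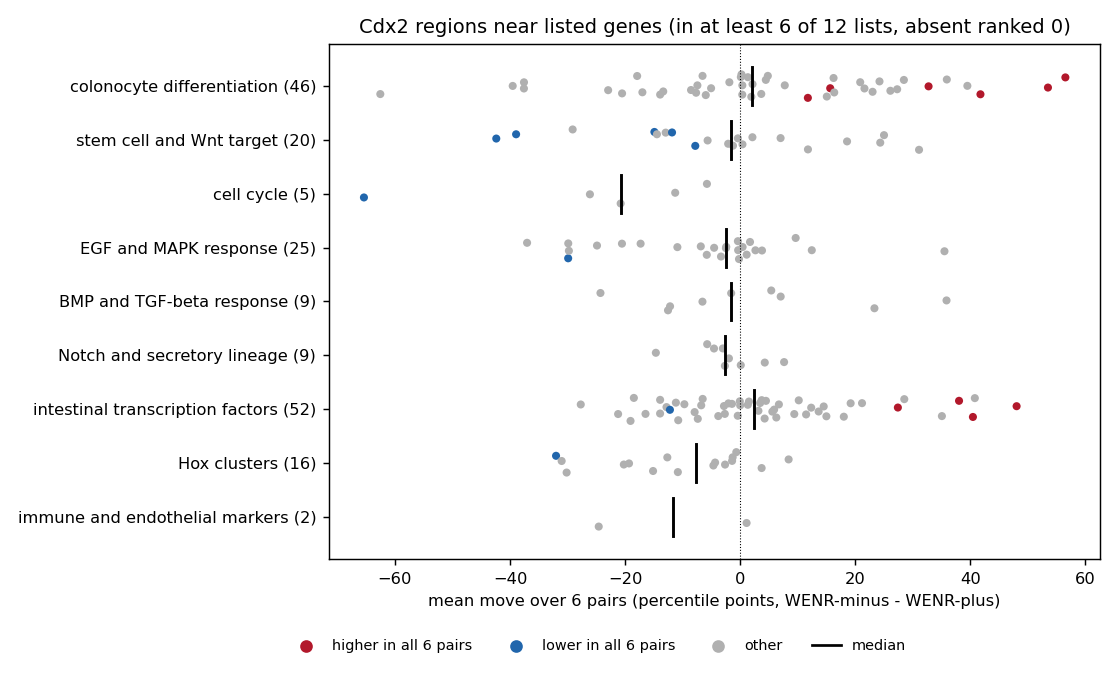
Mean move over 6 pairs (x axis, percentile points, WENR-minus less WENR-plus) of the regions within 100 kb of listed genes, in the wider set of regions in at least 6 of 12 lists with absent peaks ranked 0; each point is a region, the number of regions follows each list's name, and the black bar is the median. The points of regions higher in all 6 pairs sit on the colonocyte and transcription factor lists (6 and 4), and 5 lower ones on the stem cell and Wnt list.

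Of the 6 higher colonocyte regions 3 belonged to a single gene, Car1, the cytosolic carbonic anhydrase of colonocytes, so they share a locus. The one in an intron 11.7 kb from the start was absent from all 3 proximal WENR-plus lists and ranked 54.9, 17.2 and 77.7 in proximal WENR-minus. The distal WENR-plus peak ranked 44.4 in replicate 2 and was absent from the other 2 lists, and in distal WENR-minus it ranked 59.1, 72.0 and 84.5. A region 22.1 kb from Slc9a3, the apical sodium-proton exchanger, was found in 2 of 6 reduced WENR-plus lists and in all 6 WENR-minus lists, with mean ranks of 12.0 and 68.5. Absence from a reduced list did not mean absence of a peak: the full lists held the Car1 intron peak in 5 of 6 and the Slc9a3 peak in 4 of 6 WENR-plus libraries. Other colonocyte regions had mean moves below 0 without ranking lower in all 6 pairs, -62.5 points near Car2, another carbonic anhydrase gene, -39.5 near Myo7b, -37.6 near Edn1 and -37.6 near Slc5a8. Of the 46 regions of the list 29 had a mean move above 0 (63.0%). Further Car1 regions had mean moves of 4.46, 35.9 and 39.5 points without ranking higher in all 6 pairs, as did another Krt20 region with 3.67 points. The Car1 region at 4.46 points lay 1.94 kb from the start and was ranked in all 12 lists. Among transcription factor genes, regions nearest to Nr3c2 (the mineralocorticoid receptor), Hnf4a (a nuclear receptor of the gut epithelium) and Klf6 had mean ranks of 5.58, 17.6 and 18.9 in WENR-plus and 53.6, 58.1 and 57.0 in WENR-minus. Other listed regions of these genes did not move the same way in all 6 pairs. Their mean moves were -18.5 points at Hnf4a, -12.8 to 21.2 at Nr3c2 and -7.37 to 35.1 at Klf6.

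On the lower side, a region 6.84 kb from Plk1, a mitotic kinase gene, ranked 79.7, 79.9 and 74.9 in proximal and 42.1, 59.8 and 93.5 in distal WENR-plus. In proximal WENR-minus it ranked 14 and 23.6 in replicates 1 and 2. It was absent from the reduced proximal WENR-minus list of replicate 3 and from all 3 reduced distal WENR-minus lists. The full lists held the Plk1 peak in 4 of 6 WENR-minus libraries. A region 18.9 kb from Lrig1, a stem cell gene that restrains ErbB receptors, went from a mean rank of 53.6 to 14.7, one 88.9 kb from Ets2, an ETS factor gene, from 76.3 to 33.9, and the Hoxa4 promoter from 88.6 to 56.6. Other regions of the stem cell and Wnt target list had mean moves above 0 without ranking higher in all 6 pairs, of up to 31.1 points near Tcf7l2, a Wnt pathway transcription factor gene, 24.3 near Lgr4 and 11.8 near Axin2. Of its 20 regions 8 had a mean move above 0, against 1871 of the 3815 regions (49.0%). None of the listed regions passed the limma test in the wider set, where the smallest adjusted p over all 4897 regions was 0.117.

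**Figure D4:**
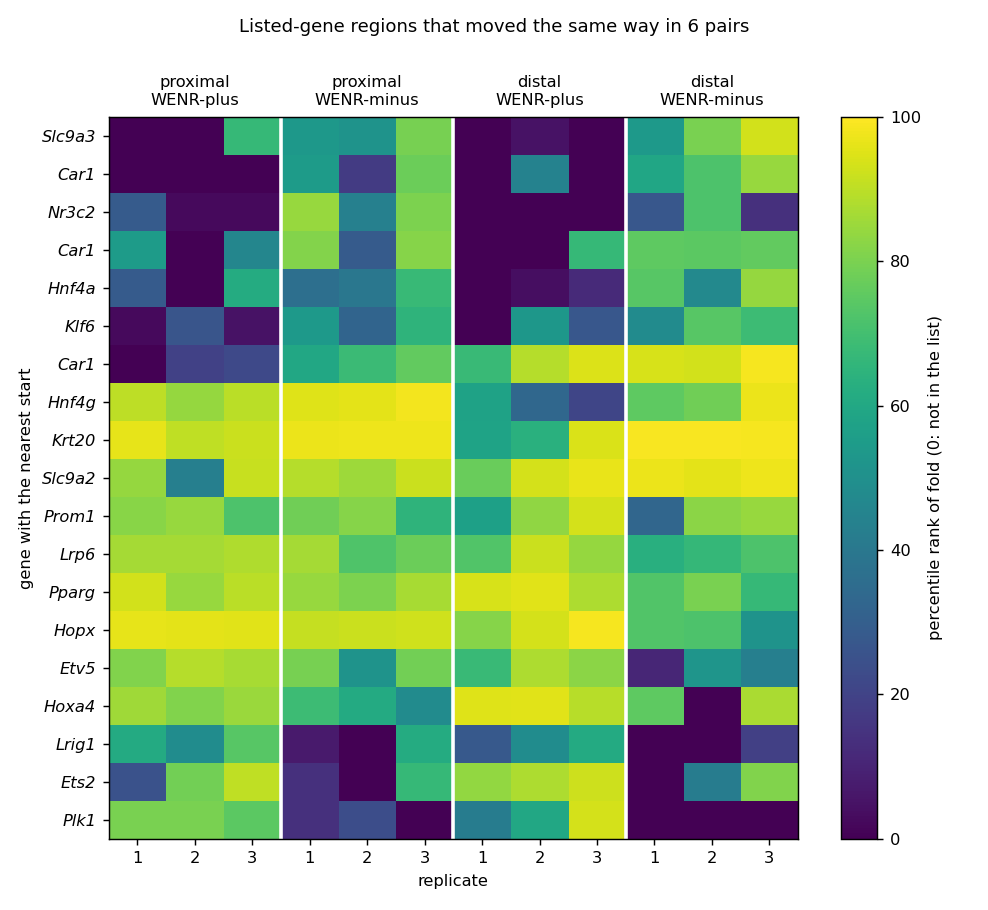
Percentile rank of fold (color, 0 to 100, where 0 marks a peak absent from the reduced list) of the 19 listed-gene regions that moved the same way in all 6 pairs of the wider set (rows, by nearest gene start) in the 12 Cdx2 libraries (columns, by group and replicate). Slc9a3 and the Car1 intron region are dark in most WENR-plus columns and lit in WENR-minus, and Plk1 shows the reverse.

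At the extreme, 5 regions were in all 6 reduced WENR-minus lists and in no reduced WENR-plus list, and 3 the other way round. Of the 5, 2 lay in introns of Me3, 11.5 and 16.2 kb from the start of this mitochondrial malic enzyme gene. The stronger one ranked 31.3, 51.5 and 69.4 in proximal and 75.1, 72.0 and 84.5 in distal WENR-minus, and the other 54.9, 61.0 and 48.1 in proximal and 33.2, 56.6 and 61.6 in distal WENR-minus. The remaining 3 were nearest to Klf4 (422 kb), Klf6 (316 kb) and Sema6a (73.0 kb). Regions nearest to Rgmb (173 kb), a BMP co-receptor gene, Sae1 (3.17 kb, in an intron of this SUMO activation gene) and Sap30l (21.7 kb, inside Galnt10) were in the 6 WENR-plus lists alone. The Rgmb region ranked 66.2, 66.7 and 88.3 in proximal and 61.3, 48.8 and 85 in distal WENR-plus. In the full lists each of the 8 was found in 3 to 5 of the 6 libraries of the other medium, so that none was limited to 1 medium there.

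Measures of whole lists that the rank of fold did not use were compared over the 6 pairs by a two-sided exact sign-flip permutation test, whose smallest p with 6 pairs is 0.0312, with Benjamini-Hochberg adjustment over 10 measures. The test counts the 6 pairs as separate, although pairs of the 2 sites may share mice. The Cdx2 word share was 64.4 ± 7.03% of summits in WENR-plus and 64.4 ± 8.09% in WENR-minus (SD, n = 6 libraries, exact p = 0.969), compared with 10.7% in windows 1000 bp to either side of the summits. The AP-1 word share was higher in WENR-minus in 6 of 6 pairs, from 8.76 ± 1.11% to 9.98 ± 1.30%, a mean difference of 1.22 percentage points (exact p = 0.0312, adjusted p = 0.156). By line the differences were 2.498, 0.874 and 1.18 points in proximal and 0.803, 0.0357 and 1.95 points in distal organoids, and the share 1000 bp away from the summits was 3.37%. The share of the HNF1 word was lower in WENR-minus in 6 of 6 pairs, 0.755 ± 0.0842% against 0.678 ± 0.117% (exact p = 0.0312, adjusted p = 0.156). Neither passed the adjustment, which at this smallest p could be passed only if most of the 10 measures reached it, and without the pairing, with media permuted within each site, the AP-1 difference had an exact p of 0.110.

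TCF/LEF words were in 5.97 ± 0.444% of WENR-plus and 5.68 ± 0.273% of WENR-minus summits (SD, n = 6, exact p = 0.312), with lower shares in WENR-minus in all 3 distal pairs and in 1 of 3 proximal pairs, and the test of the difference between sites gave an exact permutation p of 0.200, where 0.1 is the smallest possible. HNF4 words (CAAAGTC) were in 3.27 ± 0.684% and 3.30 ± 0.547% (SD, n = 6, exact p = 0.875). The promoter share was 19.7 ± 1.97% and 19.1 ± 1.67%, lower in WENR-minus in 5 of 6 pairs (SD, n = 6, exact p = 0.0938, adjusted p = 0.234). The median peak width was 419 ± 166 bp and 435 ± 120 bp (SD, n = 6, exact p = 0.812). The words for GATA, KLF (GGGNGTGG) and ETS (CGGAAG) differed by 0.387, 0.107 and -0.196 percentage points (exact p = 0.281, 0.344 and 0.0938).

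**Figure D5:**
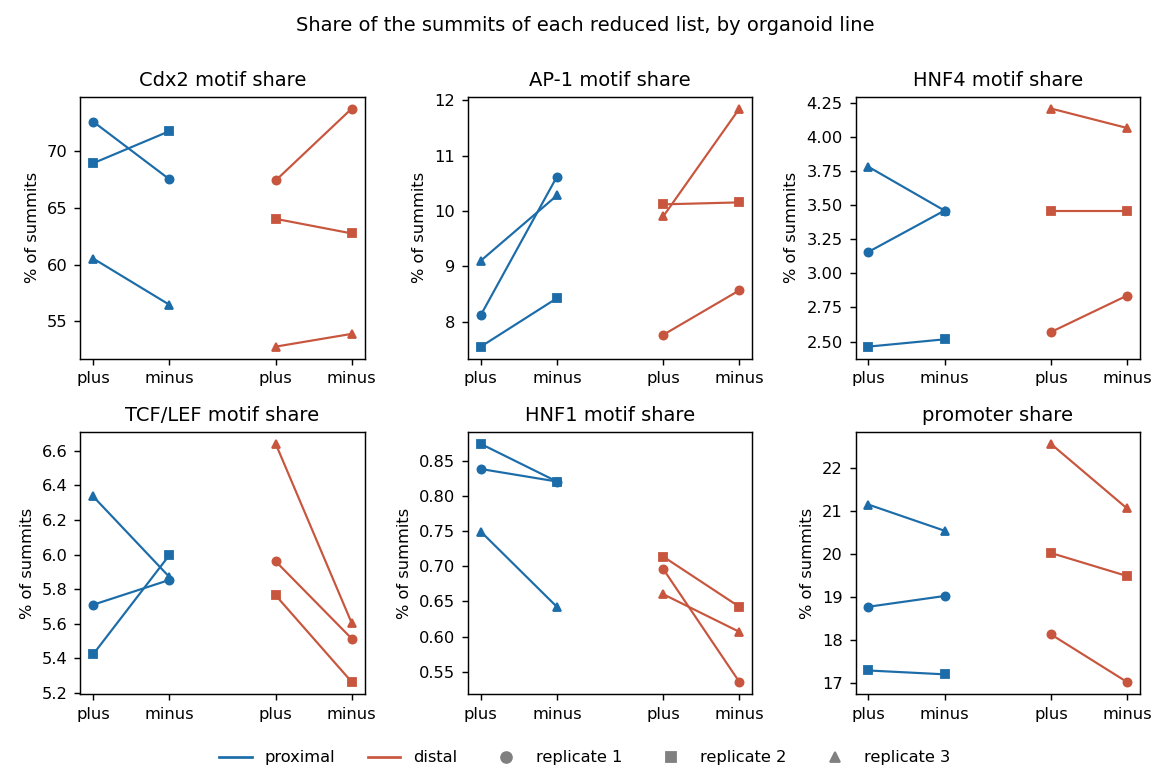
Percentage of the summits of each reduced list (y axis, not starting at 0) that hold a word within 50 bp or lie within 3 kb of an annotated start, in WENR-plus and WENR-minus (x axis), with 1 line for each of the 6 organoid lines. The AP-1 share is higher in WENR-minus in 6 of 6 pairs, the HNF1 share is lower in 6 of 6, and the Cdx2 share varies more between lines (52.8 to 73.8%) than between media.

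The lists differed in length before they were reduced, from 5604 to 42177 peaks on chromosomes 1 to 19 and X. The study's reporting summary gives read numbers and the share of reads in peaks for each Cdx2 library. The share of reads in peaks was equal or higher in WENR-plus in every proximal pair. It was higher in WENR-minus in distal replicates 1 and 3 and lower in distal replicate 2. The part of these library values in the results, also in those on medium by site, was not tested. The lists hold no reads for single peaks, so no counting interval was given for a fold. WENR-plus lists were the longer in 3 of 3 proximal and in 1 of 3 distal pairs, and the part of list length in the results was not tested beyond the alternatives here. With full lists, 45 regions ranked higher and 80 lower of 2077 in all 6 pairs, and of the 135 that moved the same way in the reduced lists 37 did so again (27.4%), while none turned in all pairs. With -log10 p in place of fold 119 of the 135 moved the same way again, and in the strongest 2802 peaks of each list 71 of the 71 that were still ranked. Both alternatives draw on the same peaks that chose these regions, so neither count is separate evidence.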

How the data were processed

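Cdx2 ChIPmentation (chromatin immunoprecipitation with transposase-based library preparation) was performed on 12 organoid samples with 12 matched inputs. By the methods, with versions from the submitters' processing notes, the authors used Trimmomatic 0.39 for trimming and Bowtie2 2.4.5 for alignment to mm10, removed duplicates with SAMtools 1.13 and called peaks for each library against its input with MACS2 2.2.7.1 at a q-value limit of 0.01, without pooling replicates. The deposited lists hold a score, the fold enrichment over input (a ratio), the -log10 p and -log10 q-value, and the summit of each peak, and no read counts, so no count model was used. The study's supplement names other versions of Bowtie2 and SAMtools.

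Lists were reduced, merged (1 bp) and ranked as stated in the report, and the peak of highest fold stood for a list with several peaks in a region. Medium was tested across all ranked regions with limma 3.58.1 (R 4.3.3, eBayes with trend, organoid line as a block, Benjamini-Hochberg adjustment), tested on simulated data beforehand. List measures were tested by exact permutation. Gene starts were taken from GENCODE vM21 and sequence from GRCm38.p6. Words were searched on both strands within 50 bp of the summit in Python 3.11.15 with pysam 0.24.0, and HNF4 and TCF/LEF words can overlap.

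Named regions were the 10 of each shared direction and the 5 of each opposite pattern with the largest smallest move over the 6 pairs, and every moved region nearest (within 100 kb) to a listed gene. The members and lists were chosen with earlier results of these data known. Replicates came from organoids of 3 mice. Media were paired by site and replicate number, as the selection of regions requires. Deviations from the group means over regions correlated by 0.00664 to 0.412 in same-numbered libraries and by -0.333 to 0.166 in others, so not every pair passed 0.1. Proximal WENR-plus replicate 1 correlated by 0.0465 with WENR-minus replicate 1 and by 0.166 with WENR-minus replicate 2. Distal WENR-plus replicate 2 correlated by 0.00664 with WENR-minus replicate 2 and by 0.0309 with WENR-minus replicate 1. The pairing of these lines thus rests on the labels alone. Alternatives covered list length, ranked column, overlap, absent peaks, scale, variance trend, block, window, promoter width and each line left out. Leaving out lines on the log2 fold scale was added after the data were seen. Inputs were used by the authors as controls for peak calling and were not analysed here.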

Additional observations from a re-analysis of the deposited data

Results flagged for a closer look

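The 10 named regions with opposite moves were singled out because every proximal line moved one way and every distal line the other. The distal less the proximal move was -74.7 points for the Dynlt1f region, -41.9 for Adamts15, -44.5 for Cask, -25.0 for Tex48 and -28.5 for Klhl31. It was 87.1 points for the Ywhaq region, 32.2 for Sem1, 49.2 for Pam, 24.4 for Fam19a5 and 23.6 for Serpinb8. The limma test of the difference between sites gave adjusted p-values of 0.690 to 0.694 for all 10, so none passed.

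Peaks outside chromosomes 1 to 19 and X were used in no comparison. They numbered 1125 over the 12 Cdx2 lists, 66 to 118 a list, and no control list was analysed beside them.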

How the results depend on the processing

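The number of regions that moved the same way was 135 of 1123, and that of opposite moves 34. Under alternatives the former was 125 with full lists, 71 with the strongest 2802 peaks of each list, 152 ranked by -log10 p, 135 with an overlap of at least 100 bp and 358 with absent peaks ranked 0, and the latter was 87, 20, 50, 34 and 76. Without 1 line, where 5 pairs must match in place of 6, the counts were 183 to 201 and 71 to 81. The count of regions called by limma for medium was 0 on the rank, 1 (Gm10198) without the replicate block and 32 on the log2 fold scale, and on that scale 22, 36 and 19 without proximal replicate 1, 2 or 3, and 33, 19 and 7 without distal replicate 1, 2 or 3. It was 0 under every other alternative run, where the smallest adjusted p was 0.0535. For medium by site the count was 0 to 1 with 1 line left out and 0 otherwise. The causes were not tested.

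For list measures, the AP-1 difference of 1.22 percentage points was 1.05 with full lists and 1.26 with the strongest 2802 peaks, both of which missed the threshold, as did 1.22 without the replicate block, and it was 0.967 to 1.46 without 1 line, where 5 pairs cannot pass. The promoter difference of -0.598 became -0.401 within 1 kb of a start and passed unadjusted (exact permutation p = 0.0312), and was -0.767 to -0.418 without 1 line. The Cdx2 difference turned sign with full lists (0.199) and ran from -1.30 to 0.985 without 1 line. The HNF4 difference turned sign with full lists (-0.0253) and with the strongest 2802 peaks (-0.0297), and ran from -0.0286 to 0.0964. The TCF/LEF difference ran from -0.460 to -0.139, and that of peak width from -10.9 to 71.9 bp. Peak lists without reads leave the precision of a single fold unknown, and 3 lines a site limit the test of site differences.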
